A study of Homo sapiens with 24 samples.

Results

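Activin, follistatin and BMP signalling was followed through 10 genes of a table of 59251: the activin subunits INHBA and INHBB, the follistatins FST and FSTL3, the BMP ligands BMP2 and BMP4, and the SMAD target genes ID1, ID2, ID3 and SMAD7. They were chosen by symbol, and all 10 had a row. INHBA, FST and BMP2 were listed because earlier results of these libraries had shown them lower under CHD1 knockdown, so their knockdown values are given as a description with no test. Of the 10 genes, 9 passed the filter on low counts, and INHBB did not. The question was whether the target genes followed the loss of INHBA and FST.

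The libraries were polyA RNA-seq of MCF10A, an immortalised, non-malignant human breast epithelial cell line. PM is the MYC-transformed derivative and PE its non-transformed counterpart, as the labels describe them. Each line carried CHD1 hairpin B, CHD1 hairpin A or a control hairpin against GFP, with 4 replicates in each of the 6 groups. All 24 cultures, the GFP groups included, received doxycycline at 50 ng/ml for 72 h and were grown with EGF, insulin, hydrocortisone, cholera toxin and horse serum. There was no culture without a hairpin or without doxycycline, and both CHD1 hairpins of a line were set against the same 4 GFP libraries. The labels call the replicates biological and do not tell how the cultures were kept apart, so a p-value here measures only library-to-library spread, which may be technical.

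Activin A, a dimer of INHBA products, binds the type II receptors ACVR2A and ACVR2B, which recruit ACVR1B and lead to phosphorylation of SMAD2 and SMAD3. Follistatin, the product of FST, and its relative FSTL3 bind activins outside the cell and keep them from their receptors. BMPs signal through SMAD1 and SMAD5, and the ID genes are among their best known direct targets. ID proteins bind E proteins such as TCF3 and hold them off DNA, while SMAD7 is an inhibitory SMAD induced by both branches that feeds back on the receptors. FST is itself known as a gene that activin can induce.

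Library totals ran from 4.14 M to 93.3 M (mega) counts, with a median of 49.5 M counts. CHD1 averaged 29.5 ± 5.4 CPM with hairpin B, 31 ± 2.76 with hairpin A and 90.0 ± 5.18 with the GFP hairpin in PM, and 28.1 ± 3.07, 29.2 ± 1.2 and 78.8 ± 5.53 CPM with the same hairpins in PE (mean ± SD, n = 4). CPM sets each count against the size of its library, after TMM, a correction for composition. In 3 libraries the depth or the number of genes with a count stood apart: replicate 1 of the GFP hairpin in PE (4.14 M counts in all), replicate 4 of hairpin A in PM (19514 genes) and replicate 3 of hairpin B in PM (33137 genes). The 9 breast epithelial markers summed to between 1320 and 2380 CPM per library and were carried by the keratins KRT5, KRT8 and KRT18. Under both hairpins 0 of the 9 rose and 2 fell in PM, and 1 rose and 3 fell in PE, with median log2 differences of -0.1 and -1.246. Among all tested genes 6.46% rose and 6.89% fell under both hairpins in PM, and 6.75% rose and 5.58% fell in PE. The 1 that rose in PE was KRT8, with 95% intervals of its log2 difference of 0.37 to 0.9 with hairpin B and 0.43 to 0.96 with hairpin A. ITGB4 did not pass under both hairpins in either line, and its intervals were 0.69 to 1.65 and 0.17 to 1.13 in PE, and 0.92 to 1.87 and -0.49 to 0.45 in PM. EPCAM was lower in PE (-1.45 to -0.59 and -1.91 to -1.03), while its PM intervals spanned both signs. CDH1, E-cadherin, averaged 0.309 CPM with hairpin B, 2.12 with hairpin A and 9.22 with GFP in PE. The basal keratin KRT14 averaged 1.18, 1.28 and 5.59 CPM with the same hairpins in PM and 0.529, 17.3 and 39.4 CPM in PE, and KRT17 11.1, 16.5 and 69.2 CPM in PM and 2.29, 14.3 and 76.3 CPM in PE. The 13 fibroblast, endothelial and immune markers, mostly CD68 and DCN, summed to 62.7 to 99.6 CPM with hairpin B, 32 to 36.9 with hairpin A and 60.5 to 85.2 with GFP in PM, and to 67.7 to 107, 80.8 to 100 and 102 to 132 CPM in PE. Of 8 tested, 1 rose and 1 fell under both hairpins in PM, and 0 rose or fell in PE. In PM the intervals for hairpins B and A were 0.85 to 1.59 and 0.48 to 1.21 for COL1A1, a fibroblast collagen. Those of CD68 were -0.73 to -0.17 and -1.54 to -0.96. The endothelial gene PECAM1 averaged 1.45, 1.75 and 0.895 CPM in PM and 6.34, 11.1 and 7.6 CPM in PE, and the leukocyte gene PTPRC reached 1.11 CPM in 1 GFP library of PE, while CD3E (T cells) and CDH5 (endothelium) were at 0 in every library of PE. In the shallowest GFP library of PE, 3 counts correspond to 0.668 CPM. Both CD3E and CDH5 had counts in PM. The part of either marker list in the results was not tested. In bulk RNA, fewer cells of a type and less RNA per cell cannot be told apart.

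The promoters of INHBA and FST, whose log2 differences under knockdown were the most negative of the tested members, and of ID1 and ID3, targets that moved in opposite directions with hairpin B, are shown here. Each run holds 250 bases before and 50 after the annotated start, 5′ to 3′ on the gene's own strand, from RefSeq on GRCh38.p14. The INHBA start used by this table lies inside the annotated gene span, whereas those of FST, ID1 and ID3 lie at the 5′ end of theirs. Of the 10 genes 9 were matched, and BMP2 was not. Capitals mark matches on either strand to CAGAC (a SMAD3 and SMAD4 box), GGCGCC (a GC-rich SMAD1 and SMAD5 box), TGANTCA (a loose AP-1 form) or CACGTG (E-box). In TGANTCA any base is allowed at N, where the AP-1 consensus has C or G. The motifs share no overlapping matches in these 4 runs.
INHBA, chr7:41703041-41703340, minus strand: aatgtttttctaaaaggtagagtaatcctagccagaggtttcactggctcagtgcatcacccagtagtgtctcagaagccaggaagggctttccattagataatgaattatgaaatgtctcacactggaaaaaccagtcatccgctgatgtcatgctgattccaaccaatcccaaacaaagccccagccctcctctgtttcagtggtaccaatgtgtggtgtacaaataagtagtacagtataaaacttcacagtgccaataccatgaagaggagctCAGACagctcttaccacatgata
FST, chr5:53480379-53480678, plus strand: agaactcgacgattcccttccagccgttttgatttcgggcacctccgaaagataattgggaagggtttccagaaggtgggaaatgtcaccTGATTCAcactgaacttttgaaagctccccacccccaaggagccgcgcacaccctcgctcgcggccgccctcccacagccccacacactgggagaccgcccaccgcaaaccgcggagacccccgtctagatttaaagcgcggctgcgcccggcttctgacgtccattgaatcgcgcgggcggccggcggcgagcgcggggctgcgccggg
ID1, chr20:31605039-31605338, plus strand: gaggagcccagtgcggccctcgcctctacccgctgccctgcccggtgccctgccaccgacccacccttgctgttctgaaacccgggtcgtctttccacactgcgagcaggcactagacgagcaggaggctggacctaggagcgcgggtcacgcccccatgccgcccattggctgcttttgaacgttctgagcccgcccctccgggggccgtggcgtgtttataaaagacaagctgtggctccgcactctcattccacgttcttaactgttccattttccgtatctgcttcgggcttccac
ID3, chr1:23559452-23559751, minus strand: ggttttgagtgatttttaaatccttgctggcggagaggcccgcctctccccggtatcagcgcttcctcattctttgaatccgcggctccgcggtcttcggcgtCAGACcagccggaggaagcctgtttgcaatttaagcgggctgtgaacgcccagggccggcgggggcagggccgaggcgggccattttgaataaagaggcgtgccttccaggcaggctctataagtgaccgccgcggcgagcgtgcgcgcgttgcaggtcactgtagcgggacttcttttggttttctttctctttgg

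The INHBA and ID3 runs each held 1 CAGAC match, the FST run held 1 TGANTCA match and the ID1 run held none of the 4 motifs. The FST match has T at N and so is not the AP-1 consensus. Among 22199 promoters of protein-coding genes of the same length, 44.8% held CAGAC, 24.3% GGCGCC, 6.15% TGANTCA and 8.34% CACGTG. The INHBA promoter was 43.3% GC, against 63.7% for FST, 62.7% for ID1, 59.7% for ID3 and a median of 62.3% over the same 22199 promoters. These matches describe letters in a window and were not measured as bound sites.

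INHBA encodes the activin βA subunit and lies at chr7:41685114-41705406 on the minus strand. In PM it was at 0.130, 0, 0.229 and 0.292 CPM with hairpin B and at 0, 0.0984, 0.701 and 0.195 CPM with hairpin A, against 8.76, 11.7, 17.7 and 9.96 CPM with the GFP hairpin. In PE it was at 0, 0.0916, 0.151 and 0.194 CPM with hairpin B and at 0.816, 0.410, 0.511 and 0.599 CPM with hairpin A, against 32.9, 26.2, 36.3 and 15.0 CPM with the GFP hairpin. Every CHD1 hairpin library was below 1 CPM and every GFP library above 8 CPM, so the groups did not overlap in either line. The log2 difference from GFP was -6.09 (SE 0.60) with hairpin B and -5.21 (SE 0.57) with hairpin A in PM, and -7.71 (SE 0.65) and -5.51 (SE 0.55) with the same hairpins in PE. Without replicate 3 of hairpin A in PM the log2 difference there was -6.91. The 3 libraries at 0 allow up to 0.0951, 0.0983 and 0.0791 CPM, from 3 counts, for hairpins B and A in PM and hairpin B in PE.

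The antisense gene INHBA-AS1 overlaps INHBA. It had no count in the 8 hairpin libraries of PM and 18 counts in its 4 GFP libraries, and no count in the 8 hairpin libraries of PE and 43 in its GFP libraries. The kit keeps strand, but the counting setting is not given in the sources used here. INHBB, the activin βB subunit at chr2:120346136-120351803, was at 0 in 20 of 24 libraries. Its 4 other values were 0.104 and 0.334 CPM with hairpin B in PM, 0.152 CPM with hairpin B in PE and 0.103 CPM with the GFP hairpin in PE.

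FST lies at chr5:53480629-53487134 on the plus strand. PM libraries held FST at 0.390, 0.349, 0.486 and 0.292 CPM with hairpin B and at 0.0328, 0.270, 0.420 and 0.195 CPM with hairpin A, against 5.59, 5.40, 5.24 and 3.86 CPM with the GFP hairpin. PE libraries held it at 0.0791, 0.229, 0.213 and 0.318 CPM with hairpin B and at 0.700, 0.293, 0.211 and 0.506 CPM with hairpin A, against 8.46, 8.88, 5.45 and 3.47 CPM with the GFP hairpin. As with INHBA, no CHD1 hairpin library reached the lowest GFP library of its line. The log2 difference from GFP was -3.70 (SE 0.42) with hairpin B and -4.29 (SE 0.44) with hairpin A in PM, and -4.87 (SE 0.46) and -3.86 (SE 0.43) in PE.

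FSTL3, the other activin-binding member, did not share the loss of FST. It lies at chr19:676392-683385 on the plus strand. In PE it was at 127, 149, 144 and 158 CPM with hairpin B and at 155, 174, 163 and 164 CPM with hairpin A, against 78.3, 93.5, 110 and 104 CPM with the GFP hairpin. Every CHD1 hairpin library of PE was above every GFP library of PE. In edgeR's quasi-likelihood test, adjusted over 20820 genes, FSTL3 rose in PE by 0.57 log2 with hairpin B (SE 0.10, adjusted p = 8.09e-05) and by 0.75 with hairpin A (SE 0.10, adjusted p = 2.99e-06).

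In PM, FSTL3 was at 169, 149, 177 and 182 CPM with hairpin B and at 181, 193, 181 and 174 CPM with hairpin A, against 150, 167, 157 and 221 CPM with the GFP hairpin. These groups overlapped, and neither hairpin passed (log2 differences -0.04, 95% interval -0.24 to 0.17, with hairpin B and 0.07, interval -0.14 to 0.27, with hairpin A; edgeR adjusted p = 0.84 and 0.70). The mean hairpin effect of FSTL3 differed between the lines by -0.64 log2 (PM minus PE, SE 0.12, edgeR adjusted p = 0.00186). It was the only 1 of the 9 tested members to pass that test, which 3.93% of all tested genes passed. Per kilobase of exon, FSTL3 was at 55.1 CPM with hairpin B, 59.3 with hairpin A and 56.7 with the GFP hairpin in PM, and at 47.3, 53.5 and 31.5 CPM in PE. FST on the same scale was at 0.128, 0.0775 and 1.69 CPM in PM and at 0.0707, 0.144 and 2.21 CPM in PE, so FSTL3 was the more abundant follistatin transcript in every group. These lengths come from GENCODE v29 and are approximate, since the annotation behind the counts is not given in the sources used here.

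**Figure D1:**
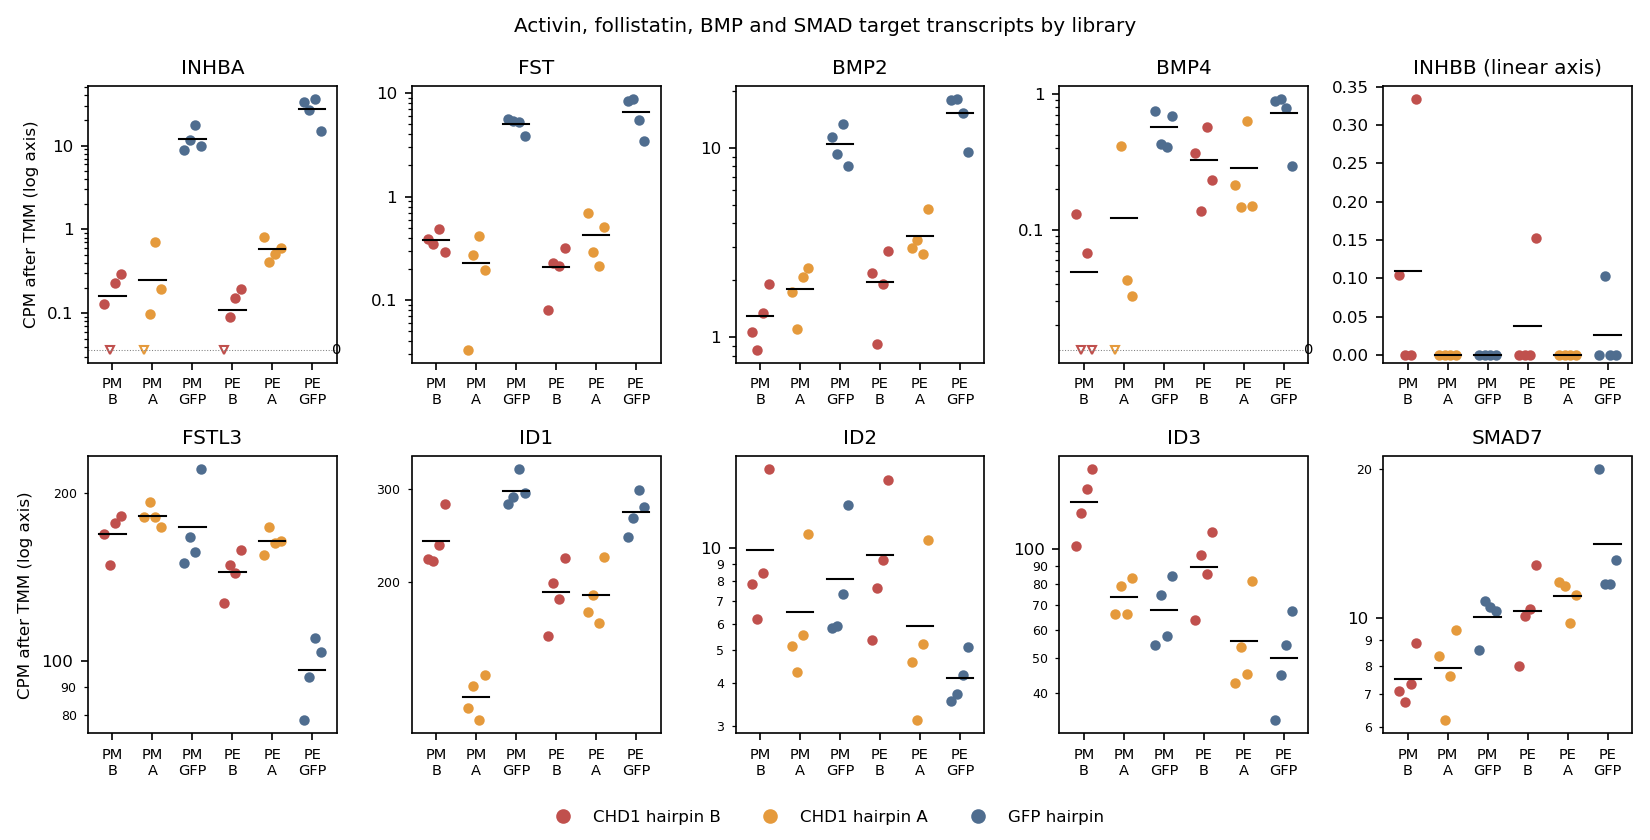
CPM after TMM scaling for the 10 genes in each of 24 libraries, on a log axis except for INHBB, with PM groups left of PE groups and the hairpins ordered B, A and GFP. Filled points are libraries, open triangles on the dotted line are libraries at 0, and bars are group means (n = 4). INHBA, FST and BMP2 sit below their GFP libraries under both CHD1 hairpins in both lines, while FSTL3 in PE sits above them.

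BMP2 encodes a BMP ligand and lies at chr20:6767686-6780246 on the plus strand. The PM libraries had 1.06, 0.856, 1.35 and 1.92 CPM with hairpin B and 1.74, 1.11, 2.07 and 2.31 CPM with hairpin A, against 11.4, 9.28, 13.4 and 8.07 CPM with the GFP hairpin. BMP2 in PE was at 2.19, 0.916, 1.90 and 2.86 CPM with hairpin B and at 2.97, 3.28, 2.74 and 4.79 CPM with hairpin A, against 18.0, 18.3, 15.3 and 9.59 CPM with the GFP hairpin. The groups did not overlap in either line. The log2 difference was -3.01 (SE 0.29) with hairpin B and -2.54 (SE 0.29) with hairpin A in PM, and -2.90 (SE 0.29) and -2.12 (SE 0.28) in PE, smaller than those of INHBA. Unlike INHBA and FST, BMP2 had a group mean above 1 CPM with each hairpin.

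BMP4, at chr14:53949736-53956891 on the minus strand, was below 1 CPM in all 24 libraries. In PM it was at 0.130, 0, 0.0674 and 0 CPM with hairpin B and at 0, 0.418, 0.0431 and 0.0326 CPM with hairpin A, against 0.757, 0.431, 0.409 and 0.691 CPM with the GFP hairpin. It fell with hairpin B in PM (log2 -3.31, SE 0.99, edgeR adjusted p = 0.0102). With hairpin A in PM the log2 difference was -2.17 (SE 0.95, edgeR adjusted p = 0.0874), and without its replicate 2 it was -4.18 with an adjusted p of 0.00456. In PE, BMP4 averaged 0.330 ± 0.19 CPM with hairpin B, 0.285 ± 0.233 CPM with hairpin A and 0.727 ± 0.293 CPM with the GFP hairpin (SD, n = 4). The PE log2 differences of -1.07 (SE 0.91) and -1.32 (SE 0.92) did not pass (edgeR adjusted p = 0.448 and 0.365).

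Among the 4 target genes, ID1 alone passed with both hairpins in PM and again in PE, a count of 1 in each line, and it fell. Of all 20820 tested genes, 13.3% in PM and 12.3% in PE passed with both hairpins in one shared direction, and 6.89% in PM and 5.58% in PE fell. With 1 hairpin at a time the share of all genes past the threshold was 28.1% for hairpin B and 27.8% for hairpin A in PM, and 26.8% and 20.2% in PE. The median over the 4 genes of the mean log2 difference was -0.206 in PM and 0.056 in PE, beside -0.006 and -0.003 over all tested genes. SMAD7, ID2 and ID3 did not pass under both hairpins in either line. In PM the count was 0 without replicate 1 or replicate 2 of hairpin B, or without replicate 3 of the GFP hairpin, and 2 without the 3 libraries that stood apart, an alternative chosen after seeing the data.

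ID1, at chr20:31605289-31606510 on the plus strand, encodes a dominant-negative partner of E proteins. In PM it was at 221, 219, 235 and 281 CPM with hairpin B and at 115, 127, 109 and 133 CPM with hairpin A, against 281, 290, 328 and 295 CPM with the GFP hairpin. All hairpin A libraries lay below all hairpin B libraries, and 1 hairpin B library equalled the lowest GFP library to 3 digits. ID1 fell by 0.32 log2 with hairpin B (SE 0.10, edgeR adjusted p = 0.015) and by 1.30 with hairpin A (SE 0.10, adjusted p = 1.34e-10). The hairpin B call was lost without its replicate 1 (adjusted p = 0.0551), its replicate 2 (0.0537) or GFP replicate 3 (0.061).

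In PE, ID1 was at 158, 199, 186 and 222 CPM with hairpin B and at 175, 189, 167 and 223 CPM with hairpin A, against 244, 265, 299 and 278 CPM with the GFP hairpin. Neither hairpin group overlapped with GFP. ID1 fell by 0.51 log2 with hairpin B (SE 0.10, edgeR adjusted p = 0.000268) and by 0.53 with hairpin A (SE 0.10, adjusted p = 0.000264). The hairpin A effect differed between the lines by -0.77 log2 (PM minus PE, SE 0.14, edgeR adjusted p = 0.00091), a test that 6.66% of all genes passed. For hairpin B the same difference was 0.19 (adjusted p = 0.668), and 2.45% of all genes passed.

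ID3, at chr1:23557926-23559501 on the minus strand, encodes another E protein partner. It passed with hairpin B and not with hairpin A in each line. The PM values were 102, 126, 147 and 167 CPM with hairpin B and 66.2, 79.2, 66.2 and 83.2 CPM with hairpin A, against 54.3, 74.8, 57.6 and 84.4 CPM with the GFP hairpin. Its hairpin B libraries lay above both other groups, which overlapped. ID3 rose by 1.00 log2 with hairpin B (SE 0.23, edgeR adjusted p = 0.00307), and with hairpin A the difference was 0.12 (SE 0.23, 95% interval -0.37 to 0.61, adjusted p = 0.782).

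In PE, ID3 was at 63.9, 96.5, 85.5 and 112 CPM with hairpin B and at 42.6, 53.6, 45.1 and 81.9 CPM with hairpin A, against 33.6, 44.8, 54.2 and 67.6 CPM with the GFP hairpin. The hairpin B and GFP ranges overlapped. ID3 rose by 0.80 log2 with hairpin B (SE 0.24, edgeR adjusted p = 0.0175) and differed by 0.12 with hairpin A (SE 0.24, 95% interval -0.39 to 0.62, adjusted p = 0.814). The hairpin B call was lost without its replicate 4 (edgeR adjusted p = 0.0583), without GFP replicate 2 (0.0562), without the 3 libraries that stood apart (0.0659) and with the compared libraries alone (0.0525).

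ID2, at chr2:8682056-8684461 on the plus strand, was the least abundant of ID1, ID2 and ID3 per kilobase in every group. In PM it was at 7.83, 6.18, 8.46 and 17.1 CPM with hairpin B and at 5.15, 4.33, 5.54 and 11.0 CPM with hairpin A, against 5.84, 5.89, 7.33 and 13.4 CPM with the GFP hairpin. PE libraries held it at 5.38, 7.65, 9.24 and 15.9 CPM with hairpin B and at 4.63, 3.11, 5.23 and 10.6 CPM with hairpin A, against 3.56, 3.72, 4.22 and 5.11 CPM with the GFP hairpin. Every hairpin B library of PE lay above every GFP library of PE, and the other groups overlapped. No ID2 difference passed in the main fit, which has no replicate term. The largest was 1.17 log2 with hairpin B in PE (SE 0.45, 95% interval 0.23 to 2.11, edgeR adjusted p = 0.0611). Among other alternatives, it passed under DESeq2's test (adjusted p = 0.0234), limma-voom (0.0377), the filter at 5 CPM (0.0323) and the compared libraries alone (0.0379). With the replicate number as a block in edgeR, this difference had an adjusted p of 1.78e-06. ID2 overlaps the antisense gene ID2-AS1, which had 58 counts with hairpin B, 19 with hairpin A and 30 with GFP in PM, and 63, 44 and 33 in PE.

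**Figure D2:**
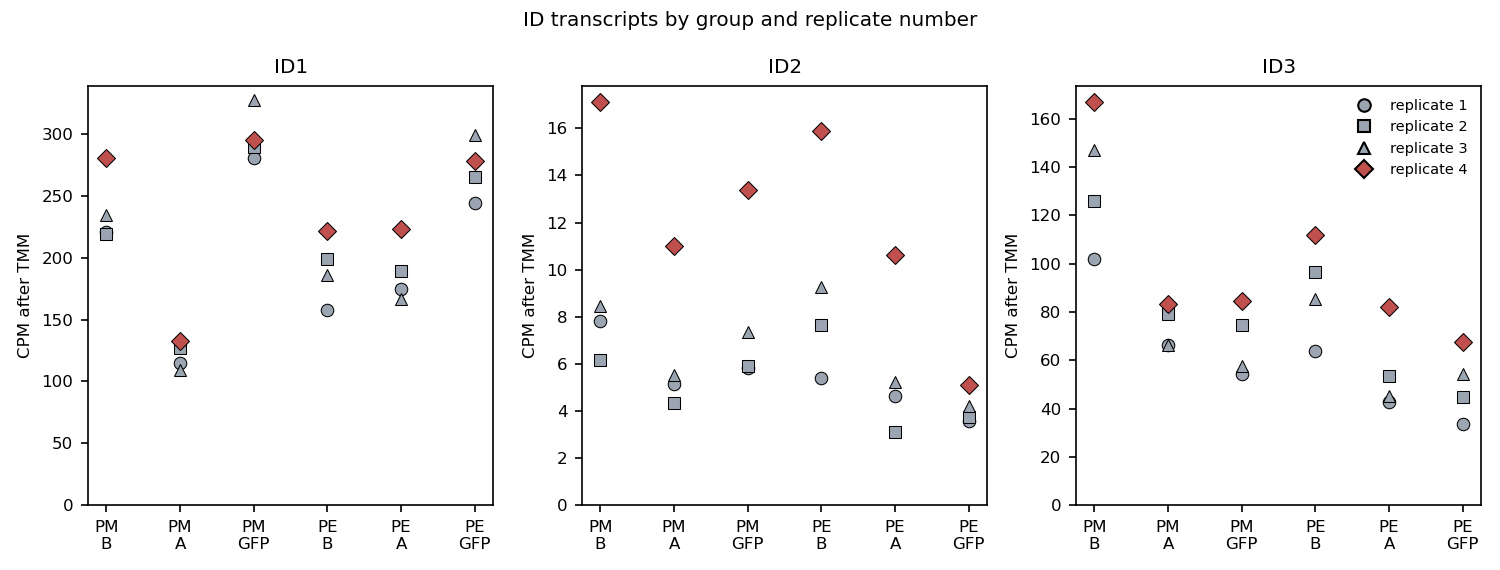
CPM of ID1, ID2 and ID3 in each library on linear axes that start at 0, by group, with replicate 4 in red and replicates 1 to 3 in grey under separate symbols. Replicate 4 is the highest library in all 6 groups for ID2 and for ID3, and in 4 of 6 for ID1.

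For ID2 and ID3 the replicate with the highest CPM was replicate 4 in all 6 groups, which held for 221 of 20820 tested genes (1.06%). The sample numbers in the column names run in replicate order, and the labels do not say that a replicate number marks a shared batch. SMAD7 lies at chr18:48919853-48950965 on the minus strand. Its PM level was at 7.10, 6.75, 7.36 and 8.89 CPM with hairpin B and at 8.36, 6.20, 7.62 and 9.45 CPM with hairpin A, against 8.61, 10.8, 10.5 and 10.3 CPM with the GFP hairpin. SMAD7 fell by 0.42 log2 with hairpin B in PM (SE 0.16, edgeR adjusted p = 0.045). That call was lost without any 1 of 14 of the 24 libraries (adjusted p up to 0.127, without replicate 2 of hairpin B) and under DESeq2's test (0.0565). With hairpin A in PM the log2 difference was -0.36 (SE 0.16, edgeR adjusted p = 0.1).

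In PE, SMAD7 was at 7.99, 10.1, 10.4 and 12.8 CPM with hairpin B and at 11.8, 11.6, 9.74 and 11.1 CPM with hairpin A, against 20.0, 11.7, 11.7 and 13.1 CPM with the GFP hairpin. The value of 20.0 CPM came from the shallowest library. The log2 differences of -0.39 (SE 0.16, 95% interval -0.72 to -0.06) with hairpin B and -0.30 (SE 0.16, interval -0.63 to 0.04) with hairpin A did not pass (edgeR adjusted p = 0.0734 and 0.224). Without replicate 4 of hairpin B in PE its difference was -0.51 with an adjusted p of 0.0276.

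**Figure D3:**
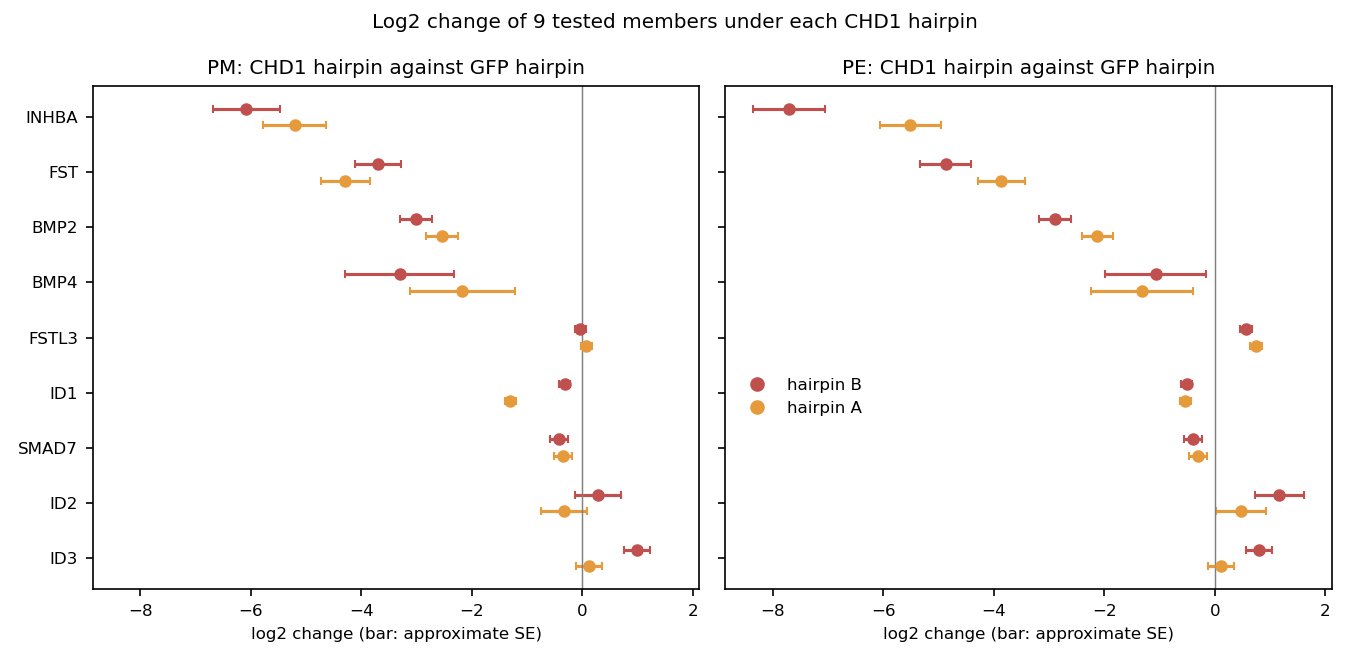
Log2 change of the 9 tested genes under each CHD1 hairpin against the GFP hairpin, PM on the left and PE on the right, with hairpin B in red and hairpin A in orange; bars are approximate SE. INHBA lies at -6.09 and -5.21 in PM and at -7.71 and -5.51 in PE, while ID1, SMAD7, ID2 and ID3 lie between -1.30 and 1.17.

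Hairpins B and A were next set against each other. In PM, 2 of the 9 tested genes differed, ID1 and ID3, where 26.3% of all tested genes did. ID1 was higher with hairpin B than with hairpin A by 0.98 log2 (SE 0.10, edgeR adjusted p = 2.39e-08) and ID3 by 0.88 (SE 0.23, adjusted p = 0.00862). The CHD1 averages of hairpins B and A, 29.5 and 31 CPM in PM, lay within the spread of the libraries. In PE, 1 of 9 differed, INHBA, where 16.6% of all tested genes did: it was lower with hairpin B, at a log2 difference of -2.20 (SE 0.73, edgeR adjusted p = 0.0456). That call was lost without any 1 of 17 of the 24 libraries, with adjusted p up to 0.135 without replicate 1 of hairpin A in PE. It also rests on knockdown values that put INHBA on the list, so no conclusion is drawn from it. No difference in ID1 between the hairpins was detected in PE (0.02 log2, 95% interval -0.18 to 0.22, edgeR adjusted p = 0.933). ID3 differed by 0.68 in PE (interval 0.19 to 1.18, adjusted p = 0.0545) and passed without any 1 of 6 libraries, with DESeq2's size factors (0.0468) or test (0.0206), library sizes alone (0.0311), limma-voom (0.00831) and the filter at 5 CPM (0.0226).

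PM and PE were compared with the GFP hairpin, a contrast that the choice of genes did not use. Of the 9 tested genes 2 differed, FSTL3 and SMAD7, where 25.5% of all tested genes did. FSTL3 averaged 174 ± 32.4 CPM in PM and 96.6 ± 14.1 CPM in PE (SD, n = 4), higher in PM by 0.83 log2 (SE 0.10, edgeR adjusted p = 3.52e-07). SMAD7 averaged 10.1 ± 0.99 CPM in PM and 14.1 ± 3.99 CPM in PE, a log2 difference of -0.43 (SE 0.16, edgeR adjusted p = 0.0488). The SMAD7 call was lost without any 1 of 7 libraries, with adjusted p up to 0.189 without the shallowest, GFP replicate 1 of PE.

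INHBA averaged 12.0 ± 3.98 CPM in PM and 27.6 ± 9.38 CPM in PE with the GFP hairpin, a log2 difference of -1.18 (SE 0.44, 95% interval -2.09 to -0.27, edgeR adjusted p = 0.0536). It missed the threshold here and passed without any 1 of 7 libraries, with limma-voom (adjusted p = 0.0014) and with the filter at 5 CPM (0.0236). FST differed by -0.36 log2 (SE 0.37, interval -1.11 to 0.39, adjusted p = 0.558) and BMP2 by -0.52 (SE 0.27, interval -1.06 to 0.02, adjusted p = 0.166). The PM minus PE difference of the mean hairpin effect was 0.97 log2 for INHBA (SE 0.69), 0.37 for FST and -0.27 for BMP2. These differences are built from the knockdown values that put the genes on the list. Their edgeR adjusted p-values of 0.551, 0.792 and 0.78 therefore cannot decide whether the effects depend on the line.

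The rest of the pathway was read from 7 lists of 100 further genes, 74 of them tested. These lists were chosen with earlier results of these data known, so their shares are a description. Under both hairpins in one direction, 15 of the 74 (20.3%) passed in PM, 5 higher and 10 lower, and 14 (18.9%) passed in PE, 5 higher and 9 lower. Among all tested genes 13.3% passed in PM, 6.46% higher and 6.89% lower, and 12.3% in PE, 6.75% higher and 5.58% lower. The median mean log2 difference of the 74 was -0.121 in PM and 0.016 in PE. The PE count of higher genes was 1 without the 3 libraries that stood apart, and 3, 3 and 2 without replicate 4 of hairpin A, GFP replicate 1 or GFP replicate 2.

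Of 14 tested receptors and co-receptors, 3 fell and 0 rose in each line. ACVR2B, a type II receptor of activins, averaged 6.76 ± 1.3 CPM with hairpin B, 7.02 ± 1.12 with hairpin A and 16.8 ± 1.66 with the GFP hairpin in PM, and 5.24 ± 0.919, 5.48 ± 1.24 and 13.6 ± 2.22 CPM in PE. Its mean log2 difference was -1.27 (SE 0.14) in PM and -1.34 (SE 0.15) in PE. TGFBR1, the type I receptor of TGF-beta, fell in both lines, with mean log2 differences of -0.61 (SE 0.10) and -0.69 (SE 0.10). ACVR1B, the type I receptor of activins, passed in PM (-0.47, SE 0.09), though not for hairpin B without GFP replicate 3 (edgeR adjusted p = 0.0686), and RGMB, a BMP co-receptor, passed in PE (-0.54, SE 0.09). The 95% intervals for hairpins B and A were also below 0 for ACVR1B in PE (-0.47 to -0.05 and -0.77 to -0.34). The same held for RGMB in PM (-0.81 to -0.41 and -0.42 to -0.02). Their PM minus PE differences of the mean effect had intervals of -0.32 to 0.2 and -0.12 to 0.37.

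Among SMAD2 and SMAD3 target genes, 13 were tested: 1 rose and 2 fell in PM, and 2 rose and 2 fell in PE. SKIL, a SMAD co-repressor induced by SMAD2 and SMAD3, fell by a mean of 0.77 log2 (SE 0.09) in PM and 0.56 (SE 0.09) in PE. ITGB6, an integrin subunit that takes part in releasing latent TGF-beta, averaged 0.547 ± 0.178 CPM with hairpin B, 7.19 ± 1.67 with hairpin A and 21.3 ± 8.3 with the GFP hairpin in PE, a mean log2 difference of -3.37 (SE 0.25). In PM its 95% intervals were -1.15 to -0.02 with hairpin B and -1.36 to -0.21 with hairpin A. COL4A1, a basement membrane collagen, passed in PE (0.51, SE 0.08) and CCN2, a matricellular protein, in PM (-0.75, SE 0.18). For hairpins B and A, the COL4A1 intervals in PM were 0.12 to 0.48 and -0.19 to 0.16. The CCN2 intervals in PE were -1.08 to -0.15 and -0.88 to 0.05. The hairpin A calls of COL4A1 in PE and CCN2 in PM were lost without any 1 of 4 libraries for COL4A1 (edgeR adjusted p up to 0.184) and of 11 for CCN2 (up to 0.116).

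Of 15 other tested ligands, 3 rose and 0 fell in PM, and 1 rose and 1 fell in PE. TGFB1 rose in both lines, by a mean of 0.31 log2 (SE 0.07) in PM and 0.35 (SE 0.07) in PE, where the hairpin A call was lost without replicate 4 of hairpin A (edgeR adjusted p = 0.0692). GDF15, a stress-induced ligand, rose by 2.2 log2 (SE 0.26) in PM. In PE it averaged 81.8 ± 18.5 CPM with hairpin B, 17 ± 3.01 with hairpin A and 11.6 ± 3.97 with GFP. The 95% interval of its PE log2 difference was 2.13 to 3.41 with hairpin B and -0.13 to 1.13 with hairpin A. BMP6 fell by 2.00 log2 (SE 0.31) in PE. In PM, BMP6 averaged 2.26 ± 0.563 CPM with hairpin B, 7.73 ± 1.55 with hairpin A and 4.02 ± 1.11 with GFP: it rose with hairpin A (log2 0.94, SE 0.33, edgeR adjusted p = 0.0295), and the hairpin B difference of -0.83 (SE 0.33) did not pass (adjusted p = 0.0603). MSTN, below 1 CPM, was the other that rose in PM; it falls outside the rule for named genes and was named after its values were seen.

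Of 9 tested antagonists, 2 fell in PM, TWSG1 among them, and 1 in PE. TWSG1, which binds BMPs, fell by 0.71 log2 (SE 0.06) in PM and 0.43 (SE 0.06) in PE. Among 15 SMADs and their regulators, 3 fell in PM (SMURF1, SKI and SMAD5) and 2 in PE (SMURF2 and SMURF1), and 0 rose. SMURF1, a ubiquitin ligase for SMADs and receptors, had mean log2 differences of -0.57 (SE 0.08) in PM and -0.33 (SE 0.08) in PE, where the hairpin B call was lost without any 1 of 4 libraries (edgeR adjusted p up to 0.131). Among 5 further SMAD1 and SMAD5 targets, 0 passed under both hairpins in PM and 1 in PE, RUNX2, a transcription factor, which rose by 1.18 log2 (SE 0.13). In PM the 95% interval of the RUNX2 log2 difference was 0.02 to 0.56 with hairpin B and -0.98 to -0.43 with hairpin A. Of the 3 E proteins that ID factors bind, TCF3 rose in both lines, by 0.47 log2 (SE 0.06) in PM and 0.38 (SE 0.07) in PE, where the hairpin B call was lost without any 1 of 5 libraries (adjusted p up to 0.13). These named means are over both hairpins, each of which passed edgeR's threshold on its own.

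**Figure D4:**
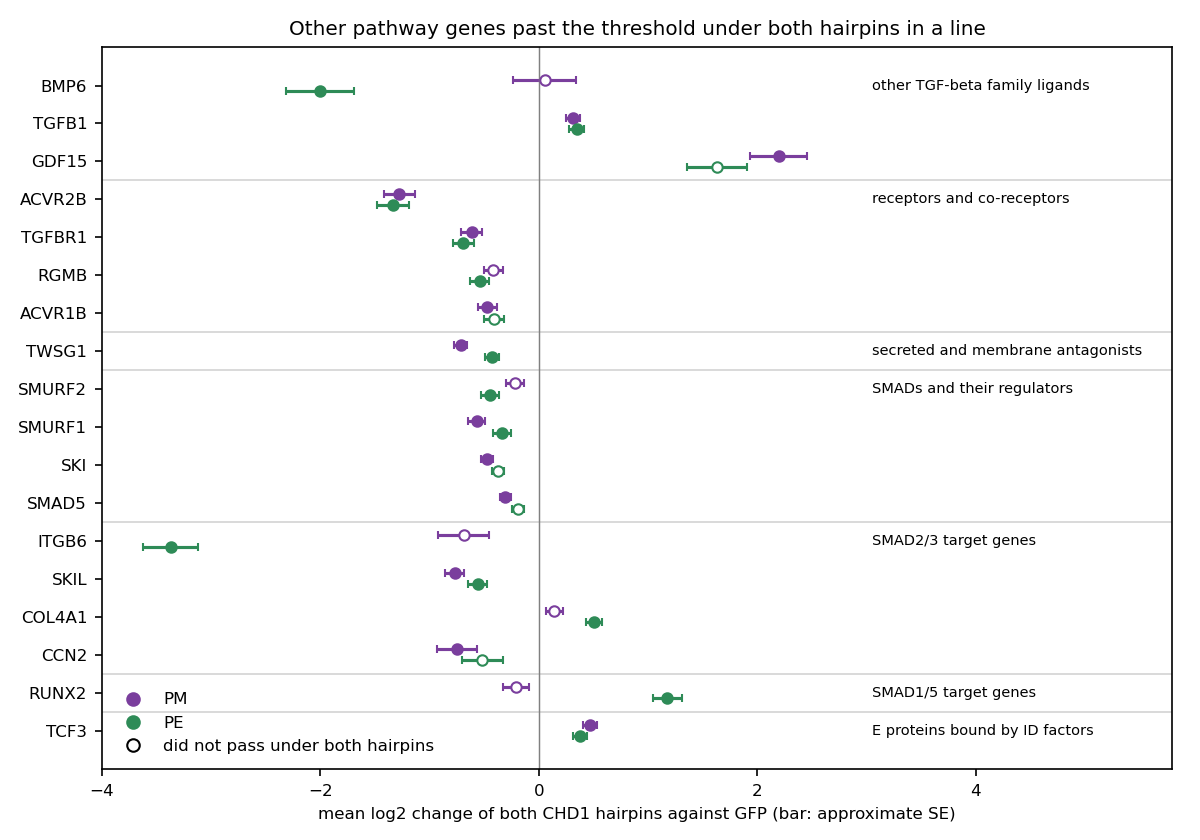
Mean log2 change over both CHD1 hairpins against the GFP hairpin for the pathway genes named in the text, PM in purple above PE in green; bars are approximate SE and open points did not pass under both hairpins in that line. ACVR2B lies at -1.27 in PM and -1.34 in PE, TGFBR1 at -0.61 and -0.69.

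Over the 24 libraries, the gene whose log2 CPM was most like that of INHBA, out of 10757 protein-coding genes whose mean reached 5 CPM in any group, was FST (Pearson r = 0.958), followed by BMP2 (0.938), FAM110C (0.932), CD164 (0.926) and ARHGEF39 (0.925). The nearest to FST were INHBA (0.958), FAM110C (0.924), CHD1 (0.914), JOSD1 (0.913) and MBOAT1 (0.909). None of the SMAD targets was among these nearest 5 of either gene. With INHBA and FST, ID1 correlated at 0.67 and 0.75 and SMAD7 at 0.63 and 0.52. For ID2 the values were -0.26 and -0.24, and for ID3 -0.53 and -0.43. The nearest to ID1 were TUSC3 (0.914), HMGB2 (0.911), FN3KRP (0.898) and TNFAIP8 (0.892), beside an uncharacterised locus. These correlations describe 24 libraries that fall into 6 groups and share the knockdown difference. INHBA, FST and BMP2 reached a mean of 5 CPM only with the GFP hairpin. They were listed for being lower under knockdown, so their ranks beside each other restate that choice.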

How the data were processed

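Values were gene counts deposited as 1 table of 24 libraries; per the submitters' processing notes the tools were FastQC, Trim Galore 0.4.0, HISAT2 2.2.1 and featureCounts on GRCh38. The sources used here name neither the gene annotation nor the strand setting. Counts were analysed with edgeR 4.0.16 in R 4.3.3: filterByExpr over the 6 groups left 20820 genes, TMM scaling, robust quasi-likelihood fit of all 24 libraries, two-sided tests, Benjamini-Hochberg adjustment over all of them and a threshold of 0.05. The SE is the size of the log2 change over the square root of F. Floors are 3 counts and cover counting error only.

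Members, lists and tests were chosen with earlier results of these data known. Named pathway genes are up to 4 per list that passed under both hairpins in 1 direction with a mean of at least 1 CPM, by size; likeness used the 5 nearest protein-coding genes. Some genes that enter the list counts are not reported here by name. Library pairs of a group differed by more than sampling noise (chi-square per degree of freedom 5.83 to 43.7), so none was taken as a repeat. Alternatives were DESeq2 1.42.0, limma 3.58.1 (voom), other scalings and filters, a replicate block, the compared libraries alone and each library left out.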

Additional observations from a re-analysis of the deposited data

Results flagged for a closer look

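In 57 groups of 4 libraries with any spread, 4 held a library far from the other 3, where chance gives about 1 in 20. INHBB was at 0.152 CPM in replicate 4 of hairpin B in PE and at 0.103 CPM in GFP replicate 2 of PE, with the other 3 libraries of each group at 0. Any group with 3 libraries at 0 and 1 above it is flagged by construction. The rate of 1 in 20 does not apply there. BMP4 was at 0.418 CPM in replicate 2 of hairpin A in PM, against 0 to 0.0431 CPM in the others, and at 0.632 CPM in replicate 3 of hairpin A in PE, against 0.147 to 0.214 CPM. All 4 values are below 1 CPM.

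The mean effect of the CHD1 hairpins on FSTL3 differed between the lines, by -0.642 log2 in PM relative to PE in edgeR's test of the difference (adjusted p = 0.00186). By hairpin the difference was -0.60 for hairpin B (adjusted p = 0.0135, and 0.0535 without the 3 libraries that stood apart) and -0.68 for hairpin A (adjusted p = 0.00289).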

How the results depend on the processing

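Over 120 single-gene results and 3946 alternative values, 3781 stayed the same, 97 lost a call, 56 gained one, 11 reversed and 1 moved. A tested value stayed the same if it kept its direction and side of the threshold. For the untested knockdown values of INHBA, FST and BMP2, it had to keep its direction and move by less than the pooled library SD. None of the reversed values was called. The cause was not tested for any of these. Counts that moved were as follows. SMAD targets in PM were 2 under limma-voom and 2 without the 3 libraries that stood apart (main 1), and 0 to 1 with 1 library left out. Higher pathway genes in PE were 8 with DESeq2's test and 1 without those 3 libraries (main 5), and 2 to 7 with 1 library left out; lower ones were 8 to 12. In PM the same ranges were 4 to 6 higher and 8 to 11 lower. Members differing between PM and PE with the GFP hairpin were 1 without those 3 libraries (main 2), and 1 to 3 with 1 library left out. Members differing between hairpins B and A in PE were 2 with DESeq2's size factors, 3 with its test, 2 with the filter at 5 CPM and 0 without those 3 libraries (main 1), and 0 to 3 with 1 library left out. Members whose effect differed between the lines were 2 with no filter (main 1).

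Same-numbered libraries of a line correlated at 0 to 0.09 in their deviations from group means, and differently numbered ones at -0.07 to 0.03. These correlations were low, so the numbers were not taken as pairs in the main fit. Yet 21 of 24 libraries correlated best with their own number. The sample numbers in the column names also run in replicate order, though no label calls this a batch. With the replicate block the higher pathway genes in PE were 9, members differing between PM and PE 5, between hairpins B and A in PE 4, and in the effect between lines 3. Under the block ID2 passed in edgeR with hairpin B in PE (adjusted p = 1.78e-06), for hairpin B against A in PM (0.0034) and in PE (0.000985) and for PM against PE with GFP (6.29e-05). ID3 then passed for hairpin B against A in PE (2.37e-05) and for PM against PE with GFP (0.00396), BMP2 for hairpin B against A in PE (0.0318), INHBA for PM against PE with GFP (0.0289) and ID1 for the effect between lines (0.0271).

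Values that reversed, all of differences that did not pass, were these. INHBA for hairpin B against A in PM was 0.83 without hairpin A replicate 3 (-1.175 to 0.83 with 1 library left out). FSTL3 under hairpin B in PM was 0.009 with library sizes alone and -0.093 to 0.108 with 1 left out. ID1 for hairpin B against A in PE ran over -0.047 to 0.12, ID2 in PM over -0.099 to 0.639 under hairpin B and -0.682 to 0.019 under hairpin A, and ID3 under hairpin A in PE over -0.139 to 0.294, and -0.014 with limma-voom. With no filter the median of all genes moved by over 0.1 log2 for hairpin B in PM, to 0.125, and for hairpin B against A in PM, to 0.146. INHBB had no test under the main filter, and the filter at 5 CPM left out genes below it. Low counts limit INHBA, FST and BMP4 under knockdown: 3 counts correspond to 0.0323 to 0.668 CPM.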
